A study of Mus musculus with 6 samples.

Results

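The 10 genes described here were the 2 receptors for corticosterone, Nr3c1 and Nr3c2, and 8 genes that glucocorticoids are known to induce, Fkbp5, Sgk1, Tsc22d3, Zbtb16, Hif3a, Plin4, Sult1a1 and Errfi1. They were taken by their symbols from the 55421 genes of a bulk RNA-seq study of the aging mouse cerebral cortex, and all 10 were found and passed the count minimum. The cortex was dissected from male wild-type C57BL/6J mice, 3 of 6 months (mice 10, 11 and 17) and 3 of 24 months (mice 2, 4 and 5), which were anesthetized with isoflurane and killed by cervical dislocation. The labels name no treatment other than the anesthetic, and the age groups differed in no other label. Each mouse gave 1 library. The p-values of the age comparison weigh the difference between the ages against the spread between mice of the same age. With 1 library per mouse, that spread cannot be told apart from differences in dissection or library preparation.

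Corticosterone, the main glucocorticoid of mice, is secreted by the adrenal cortex under the control of the hypothalamus and pituitary, with a daily rhythm and in bursts during stress. In brain cells it binds the mineralocorticoid receptor (Nr3c2), which is occupied at low hormone levels, and the glucocorticoid receptor (Nr3c1), which is occupied mainly at the daily peak and under stress. Both are held by Hsp90 and its cochaperones until the hormone binds, then move to the nucleus and act on glucocorticoid response elements in DNA. The 8 target genes are widely used as readouts of this pathway in brain tissue.

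The libraries held 29495379 to 36494240 counts. At least 1 count was found on 33974 to 35651 genes in the 6-month-old cortices and on 40208 to 43561 genes in the 24-month-old cortices. Levels of a gene between mice are given in CPM, counts brought to a common library size with TMM scaling, and levels between genes in TPM, which are divided by gene length as well. A gene is said to have risen or fallen when the quasi-likelihood test of edgeR gave it an adjusted p below 0.1, a 10% false discovery rate (FDR), a level chosen with the knowledge that no gene passed the 1% FDR of the study in this test. At 10% FDR, 18.4% of the 32905 genes tested passed, 8.33% lower and 10.0% higher at 24 months. Over the 15761 genes with a mean of at least 1 CPM, 17.3% were lower and 2.43% higher. At 1% FDR 0 genes passed (0.0%), while 10097 genes had an unadjusted p under 0.05, and at 1% the likelihood ratio test called 1703 genes, the exact test 1111 and DESeq2 227. Without mouse 10 or mouse 4, 0 of all genes passed at 10% FDR, so each call of this test over the 6 mice given below ended in these fits. The direction of the calls depended on the scaling. Of the genes called, 54.6% were higher with TMM, 88.8% with TMM factors from genes of at least 1 CPM and 92.8% with library totals, and the median log2 fold change over all genes was 0.15, 0.30 and 0.34. For genes of at least 1 CPM the median was -0.14, 0.01 and 0.05, so the fold changes of the 10 genes are also given relative to this median.

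Of the 10 genes, 3 fell at 24 months, against 8.33% of all genes tested and 17.3% of those of at least 1 CPM. The 3 were Sgk1, Tsc22d3 and Errfi1. With TMM scaling they were also the 3 whose levels did not overlap between the ages, against 16.3% of all genes tested, and 32.5% of those of at least 1 CPM, whose 24-month values all lay below the 6-month values. This separation depended on the scale, since with counts over library totals and in TPM Errfi1 alone of the 10 genes was separated, against 4.75% and 8.65% of all genes. Of the genes of at least 1 CPM, 9.36% and 17.3% were separated in this direction on these scales. None of the 10 rose at 10% FDR, against 10.0% of all genes tested and 2.43% of those of at least 1 CPM. At 1% FDR 0 of the 10 passed, as 0 of all genes did. Both receptors, Fkbp5, Zbtb16, Hif3a, Plin4 and Sult1a1 had overlapping levels on each of these scales. The log2 fold changes of the 8 targets ranged from -0.78 to 0.95, with a median of -0.06.

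**Figure D1:**
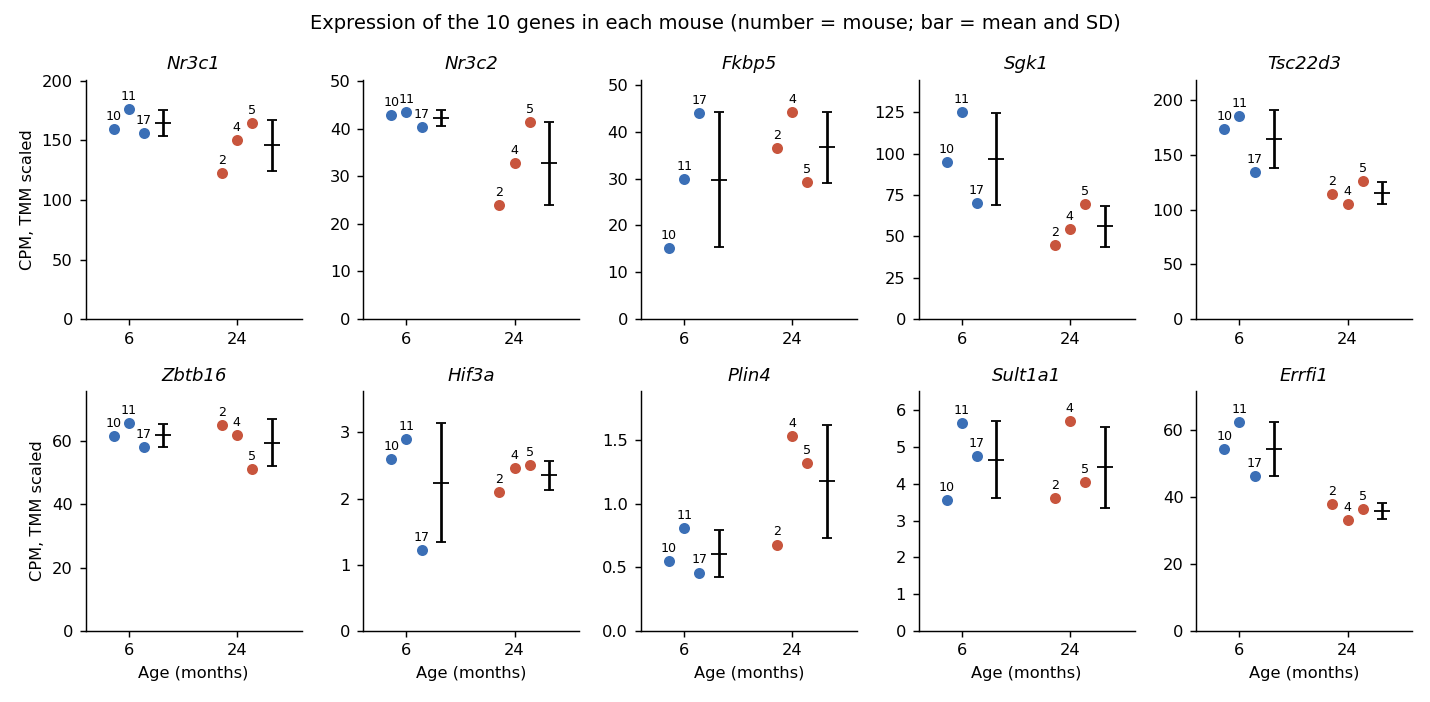
Level of each of the 10 genes in CPM after TMM scaling (vertical axis, from 0) in each mouse (number beside the point) at 6 months (blue) and 24 months (red), with bars at the mean ± SD of 3 mice. The 24-month-old mice lie below all 6-month-old mice for Sgk1, Tsc22d3 and Errfi1, and the ages overlap for the other 7 genes, while in TPM or over library totals Errfi1 alone is separated.

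The glucocorticoid receptor gene Nr3c1 (chr18:39410545-39519421, minus strand, GRCm38) was measured at 159.6, 176.6 and 156.3 CPM in mice 10, 11 and 17 and at 122.6, 149.9 and 164.8 CPM in mice 2, 4 and 5. Mice 2 and 4 lay below the 6-month-old mice, while mouse 5 lay among them. The means were 164.2 ± 10.9 and 145.7 ± 21.4 CPM (SD, n = 3), and the log2 fold change, -0.17 ± 0.12 (SE), did not pass the test (edgeR adjusted p = 0.341). Its sign depended on the scaling, with 0.02 for library totals, and relative to the median of genes of at least 1 CPM the difference was -0.03.

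The mineralocorticoid receptor gene Nr3c2 (chr8:76899442-77245012, plus strand) was measured at 42.8, 43.5 and 40.4 CPM in the 6-month-old mice. The 24-month-old mice 2, 4 and 5 had 24.0, 32.8 and 41.4 CPM. The young mice were close to each other, and the old mice ranged from well below them to within their range. The log2 fold change was -0.37 ± 0.17 (edgeR adjusted p = 0.174), and it rested on individual mice. Without mouse 5 it was -0.57 and passed at 10% FDR (edgeR adjusted p = 0.0405), as 11.6% of all genes did downwards in that fit, and without mouse 2 it was -0.18. Relative to the median of genes of at least 1 CPM it was -0.22. In the annotation, exons of Nr3c2 overlap those of the antisense gene Gm10649. Reads within the shared stretch cannot be told apart, since the counting is not stated to use strand, and the extent of the overlap was not measured.

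Per length, Nr3c1 was the more abundant receptor in every mouse. The ratio of Nr3c2 to Nr3c1 TPM was 0.319, 0.292 and 0.307 in the 6-month-old mice and 0.233, 0.259 and 0.299 in the 24-month-old mice 2, 4 and 5. Mouse 5 lay within the young range and the other old mice below it. The mean ratio was 0.306 ± 0.0131 at 6 months and 0.264 ± 0.0332 at 24 months (SD, n = 3), a log2 difference of -0.22 (exact permutation test, two-sided, p = 0.2). With 3 mice per age the exact permutation test cannot go below p = 0.1.

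**Figure D2:**
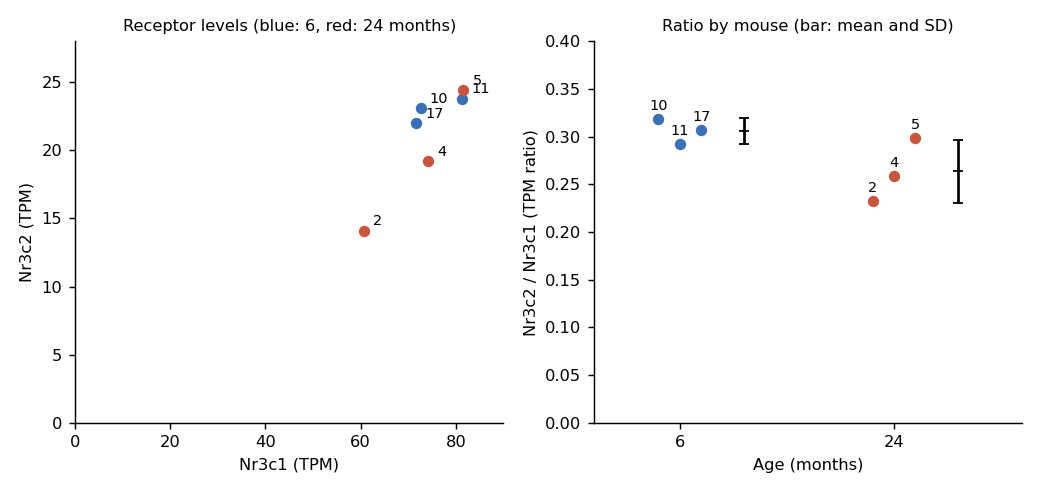
Left, TPM of Nr3c2 (vertical axis) against TPM of Nr3c1 (horizontal axis) in each mouse (6 months blue, 24 months red), with axes from 0. Right, their ratio in each mouse, with bars at the mean ± SD of 3 mice per age: mice 2 and 4, at 0.233 and 0.259, lie below the 6-month-old mice, and mouse 5, at 0.299, lies among them.

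The promoters of the 3 genes that fell are shown because glucocorticoid response elements in promoters are one route by which the receptors act. The windows are those of RefSeq on GRCm38.p6, 250 bases before to 50 bases after a transcription start, of which 16 belonged to 8 of the 10 genes, with no entry for Nr3c1 and Zbtb16. Capitals mark matches, on either strand, to the palindrome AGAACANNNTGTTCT, to its core GNACANNNTGTNC, which lies within it, or to the 6-base arm AGAACA, of which the palindrome holds one on each strand. The sequences are the window of Sgk1 that holds the palindrome (chr10:21993640-21993939, plus strand), the window of Tsc22d3 that holds a single arm (chrX:140600473-140600772, minus strand) and, for comparison, the more downstream of the 2 windows of Errfi1 (chr4:150854820-150855119, plus strand), written 5′ to 3′ along the gene's strand.
Sgk1: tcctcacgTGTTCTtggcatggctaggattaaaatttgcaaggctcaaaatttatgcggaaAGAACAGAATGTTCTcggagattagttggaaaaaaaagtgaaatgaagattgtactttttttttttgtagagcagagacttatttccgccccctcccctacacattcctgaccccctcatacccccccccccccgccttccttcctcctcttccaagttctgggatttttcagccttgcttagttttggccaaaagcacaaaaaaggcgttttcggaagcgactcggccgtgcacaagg
Tsc22d3: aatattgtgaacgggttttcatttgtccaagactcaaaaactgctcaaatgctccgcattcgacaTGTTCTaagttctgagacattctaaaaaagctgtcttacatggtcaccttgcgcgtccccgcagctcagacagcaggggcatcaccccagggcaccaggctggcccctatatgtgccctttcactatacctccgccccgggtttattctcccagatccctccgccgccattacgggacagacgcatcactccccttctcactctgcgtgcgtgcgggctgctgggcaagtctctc
Errfi1: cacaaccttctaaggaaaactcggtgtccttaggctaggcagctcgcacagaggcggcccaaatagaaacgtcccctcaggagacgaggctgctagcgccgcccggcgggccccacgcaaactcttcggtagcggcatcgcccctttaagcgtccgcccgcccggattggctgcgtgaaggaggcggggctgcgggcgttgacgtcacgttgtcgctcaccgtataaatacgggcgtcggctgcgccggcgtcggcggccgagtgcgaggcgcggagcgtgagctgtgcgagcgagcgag

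The Sgk1 window held the palindrome as AGAACAGAATGTTCT, with its first base at -189 from the transcription start of this window, and a further single arm at -242. Sgk1 had several windows with different starts, and which start was used in the cortex was not measured. The palindrome was found in 3 of the 32851 windows of all genes (0.00913%) and in 1 window of the 8 genes, that of Sgk1. The core was found in 156 windows (0.475%) and again in this window only among the 16. Arms were common, in 6233 windows (19.0%), and were found in 5 of the 16, namely 3 of Sgk1, 1 of Sult1a1 and the one of Tsc22d3, where TGTTCT began at -185. Neither window of Errfi1 held any of the 3 motifs. These matches describe letters in short windows, and receptor binding was not measured.

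Sgk1 (chr10:21882184-21999903, plus strand) encodes the serum- and glucocorticoid-regulated kinase, which acts on ion channels and transporters and is strongly induced by corticosterone in brain. Its level was 95.0, 125.1 and 70.1 CPM in mice 10, 11 and 17 and 44.8, 54.4 and 69.4 CPM in mice 2, 4 and 5. On this scale all old mice lay below all young mice, mouse 5 only just below mouse 17. In TPM mouse 5 (53.8) lay above mouse 17 (50.4), so the ages overlapped. The mean went from 96.7 ± 27.5 to 56.2 ± 12.4 CPM (SD, n = 3), and Sgk1 fell by 0.78 on the log2 scale (SE 0.21, edgeR adjusted p = 0.0617), or by 41.9%. Relative to the median of genes of at least 1 CPM the fold change was -0.64, and only 0.59% of these genes had a lower one. The call ended when mouse 10, 11, 2 or 4 was left out (edgeR adjusted p = 0.153, 0.209, 0.143 and 0.173), with library totals (0.101) and with filterByExpr (0.132), and its sign held in each of these fits.

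Tsc22d3 (chrX:140539528-140600659, minus strand) encodes GILZ, the glucocorticoid-induced leucine zipper, an anti-inflammatory mediator of the hormone. It was the most abundant of the 10 genes per length. The 6-month-old mice 10, 11 and 17 had 173.5, 185.0 and 134.5 CPM, and the 24-month-old mice 2, 4 and 5 had 114.4, 105.3 and 126.0 CPM. The groups did not overlap on this scale, with mouse 17 the lowest of the young and mouse 5 the highest of the old. In TPM these mice, at 109.1 and 110.4, overlapped. The mean went from 164.3 ± 26.5 to 115.2 ± 10.4 CPM (SD, n = 3), and Tsc22d3 fell by 0.51 on the log2 scale (SE 0.13, edgeR adjusted p = 0.0567), or by 29.9%. Relative to the median of genes of at least 1 CPM this was -0.37. The call ended without mouse 10, 11, 2 or 4 (edgeR adjusted p = 0.156, 0.220, 0.121 and 0.172), with library totals (0.132), with TMM factors from genes of at least 1 CPM (0.115) and with filterByExpr (0.135), and its sign held in each.

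Errfi1 (chr4:150853919-150868892, plus strand) encodes Mig6, a feedback inhibitor of the epidermal growth factor receptor. It was measured at 54.4, 62.4 and 46.2 CPM in the 6-month-old mice and at 37.9, 33.2 and 36.5 CPM in the 24-month-old mice 2, 4 and 5. The old mice were close to each other and all below the young mice. The same held in TPM, with 45.4 as the lowest young and 40.3 as the highest old value. The mean went from 54.3 ± 8.11 to 35.9 ± 2.41 CPM (SD, n = 3), and Errfi1 fell by 0.60 on the log2 scale (SE 0.12, edgeR adjusted p = 0.0518), or by 34.0%. Relative to the median of genes of at least 1 CPM this was -0.46. It was the one gene of the 10 that passed 1% FDR in the likelihood ratio test (adjusted p = 0.00559) and in the exact test (0.00737) of edgeR, in which 0.766% and 0.571% of all genes passed as lower. Its call ended without mouse 10, 11, 2 or 4 (edgeR adjusted p = 0.150, 0.162, 0.109 and 0.166), and it held with library totals (0.0865) and with TMM factors from genes of at least 1 CPM (0.0774), where 0.966% and 1.39% of all genes were called lower. Sgk1 was also called in the latter (0.0915). In the same fits without these mice, 0, 1, 176 and 0 of all genes passed.

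Fkbp5 (chr17:28399094-28517527, minus strand) encodes an Hsp90 cochaperone that lowers the hormone affinity of the receptor and is itself induced by it, a short feedback loop. It was measured at 15.2, 30.0 and 44.0 CPM in mice 10, 11 and 17, a 2.89-fold range within the young group. The old mice 2, 4 and 5 had 36.6, 44.2 and 29.2 CPM and lay between mouse 11 and mouse 17 or close to them. The log2 fold change of 0.30 ± 0.31 did not pass (edgeR adjusted p = 0.527), and without mouse 10 it was -0.01. Relative to the median of genes of at least 1 CPM it was 0.45. Fkbp5 and Sgk1 ordered the young mice differently, since mouse 17 had the highest Fkbp5 and the lowest Sgk1.

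Zbtb16 (chr9:48654297-48836222, minus strand) encodes the zinc finger transcription factor PLZF. Its levels of 61.7, 65.7 and 58.2 CPM at 6 months and of 65.3, 62.1 and 51.3 CPM at 24 months lay in the same range except for the lower mouse 5. The log2 fold change was -0.05 ± 0.11 (edgeR adjusted p = 0.766), turned to 0.14 with library totals and was 0.09 relative to the median of genes of at least 1 CPM. Hif3a (chr7:17031507-17062427, minus strand) encodes a member of the hypoxia-inducible factor family. Its levels were 2.60, 2.90 and 1.22 CPM at 6 months and 2.10, 2.46 and 2.50 CPM at 24 months. Mouse 17 was the lowest of all, and the other 5 mice lay together. The log2 fold change was 0.07 ± 0.29 (edgeR adjusted p = 0.888), without mouse 17 it was -0.22, and relative to the median of genes of at least 1 CPM it was 0.21.

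Sult1a1 (chr7:126672865-126676432, minus strand) encodes a sulfotransferase of phenolic compounds. It was measured at 3.57, 5.65 and 4.76 CPM at 6 months and at 3.61, 5.70 and 4.06 CPM at 24 months. The ranges of the ages were nearly the same. The log2 fold change was -0.07 ± 0.22 (edgeR adjusted p = 0.861), turned to 0.12 with library totals and was 0.08 relative to the median of genes of at least 1 CPM. Exons of the antisense gene Sgf29 overlap those of Sult1a1, and reads within the shared stretch cannot be told apart. The extent of the overlap was not measured.

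Plin4 (chr17:56100591-56109803, minus strand) encodes perilipin 4, a coat protein of lipid droplets. It was the least abundant of the 10 genes, with 17, 28 and 15 counts in mice 10, 11 and 17 and 22, 53 and 45 counts in mice 2, 4 and 5. These counts correspond to 0.551, 0.811 and 0.458 CPM and to 0.678, 1.53 and 1.32 CPM. Mice 4 and 5 were the highest, while mouse 2 lay within the young range. The log2 fold change of 0.95 ± 0.35 did not pass at 10% FDR in the quasi-likelihood test (edgeR adjusted p = 0.111), and relative to the median of genes of at least 1 CPM it was 1.09. Plin4 itself, with means of 0.607 and 1.18 CPM at 6 and 24 months, lay outside that set. The median of that set was -0.14, while over all genes tested it was 0.15. Plin4 passed with library totals (0.0850), with TMM factors from genes of at least 1 CPM (0.0906), in the likelihood ratio test (0.0683) and in the exact test (0.0908), in which 12.5%, 11.0%, 16.1% and 12.8% of all genes were called higher. Exons of the antisense gene Hdgfl2 overlap those of Plin4. Of 5 adipocyte markers, 4 were tested and 1 rose, Plin1, at 1, 2 and 3 counts in the young mice and 8, 15 and 3 in mice 2, 4 and 5 (edgeR adjusted p = 0.0997), and the summed level of the list was 0.428 to 0.519 CPM at 6 months and 0.529 to 1.39 CPM at 24 months. The part of such markers, and of the larger number of genes with a count at 24 months, in the values of Plin4 was not tested.

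**Figure D3:**
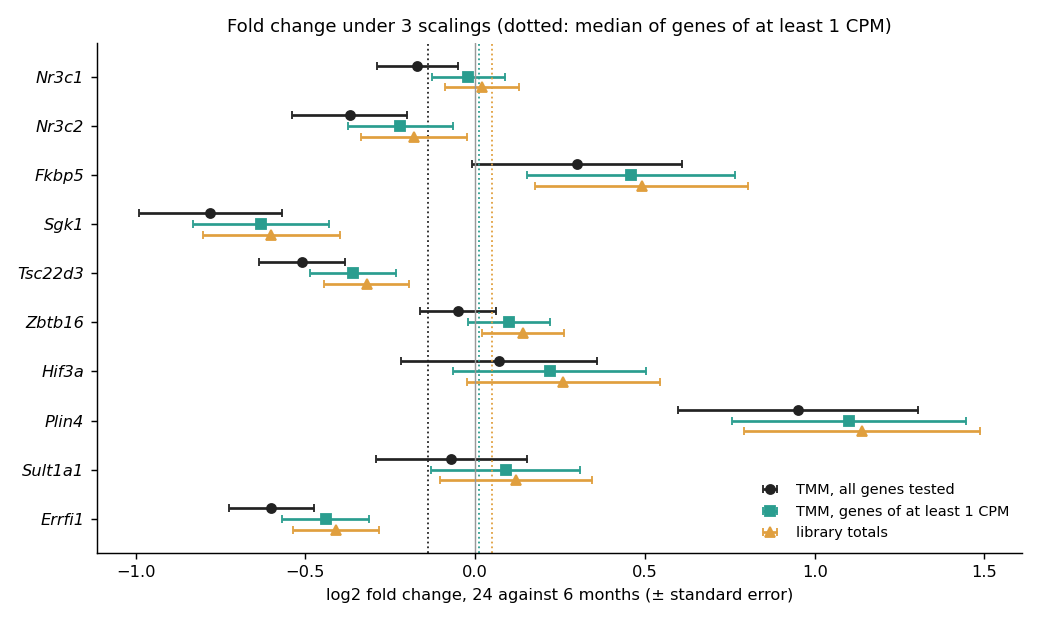
Log2 fold change of 24 against 6 months (horizontal axis) with its standard error for each of the 10 genes under 3 scalings of the counts, and the median of genes of at least 1 CPM under each scaling (dotted lines at -0.14, 0.01 and 0.05). Sgk1, Tsc22d3, Errfi1 and Nr3c2 lie below 0 and below the median under each scaling, though Nr3c2 was called under none of them. Nr3c1, Zbtb16 and Sult1a1 change sign.

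By TPM at 6 months the order was Tsc22d3 (133.2 ± 21.6), Nr3c1 (75.2 ± 5.34), Sgk1 (69.4 ± 20.0), Errfi1 (53.4 ± 8.12), Zbtb16 (41.2 ± 2.65), Nr3c2 (23.0 ± 0.916), Fkbp5 (11.1 ± 5.38), Sult1a1 (10.9 ± 2.50), Hif3a (1.17 ± 0.469) and Plin4 (0.337 ± 0.103; SD, n = 3). The neighbours Nr3c1 and Sgk1, Sgk1 and Errfi1, and Fkbp5 and Sult1a1 overlapped in this order. At 24 months Tsc22d3 (101.0 ± 9.09 TPM) and Nr3c1 (72.2 ± 10.6) were again the highest, and Sgk1 (43.6 ± 9.57), Zbtb16 (42.9 ± 5.30) and Errfi1 (38.1 ± 2.58) overlapped as neighbours. Nr3c2 (19.2 ± 5.11 TPM) overlapped Fkbp5 (14.7 ± 3.02), and Fkbp5 overlapped Sult1a1 (11.2 ± 2.77), with Hif3a (1.33 ± 0.125) and Plin4 (0.706 ± 0.266) below them. The targets thus covered a wide range of levels, from rank 1591 of all genes for Tsc22d3 to rank 22860 for Plin4.

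The 8 targets did not move as a block from mouse to mouse. On log2 CPM over the 6 mice, Sgk1, Tsc22d3 and Errfi1 tracked each other (Pearson r = 0.89 to 0.97). Fkbp5 ran against these 3 (r = -0.68 to -0.53), and the other pairs of targets had r of -0.60 to 0.55. These correlations include the difference between the ages. The mean z-score of the 8 targets on log2 CPM was 0.87 in mouse 11, and between -0.38 and 0.11 in the other 5 mice of either age. The summed level of the 8 targets was 359.4 to 477.6 CPM at 6 months and 305.4 to 320.2 CPM at 24 months, a sum that Tsc22d3 and Sgk1 dominate. The 5 genes of at least 1 CPM whose pattern over the 6 mice was most like the mean z-score were Tmem255a (r = 0.982), Dmrt2 (0.979), Cpa6 (0.974), Cpsf4 (0.973) and Klhl13 (0.973), Pearson correlations over n = 6 mice, as a description. None of these 5 passed the age comparison, 3 of them were again among the 5 most alike on log2(TPM + 1), and by Spearman's rho 18 genes tied at 1.0, with 1 of the 5 among them.

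Libraries differed in their cell type markers, and in bulk tissue fewer cells of a type and less RNA per cell cannot be told apart. The neuron markers summed to 7938.3 to 9278.3 CPM at 6 months and 5856.2 to 7670.7 CPM at 24 months, and 1 of 6 fell, Syt1 (-0.40). The summed oligodendrocyte markers were 2931.0, 3715.8 and 2367.9 CPM in mice 10, 11 and 17 and 1258.7, 3050.0 and 4052.4 CPM in mice 2, 4 and 5, with 0 of 6 called, with a log2 fold change of -0.20 for Mobp. Within each age, Sgk1 and this sum put the mice in the same order. Nr3c1, Nr3c2 and the summed clock genes described below gave that order too, so it was particular to neither. The part of oligodendrocyte content in the level of Sgk1 was not tested. Mouse 2 was the lowest in the summed neuron, oligodendrocyte and endothelial markers and in both receptors.

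Of 6 astrocyte markers 1 rose, Gfap (0.69), whose levels overlapped between the ages, and 4 of the 6 were fitted lower at 24 months. Their sum was 3331.0 to 3495.6 CPM at 6 months and 3424.2 to 3524.2 CPM at 24 months. The microglial genes Csf1r (-0.34) and Tmem119 (0.34) went in opposite directions. The precursor marker Gpr17 (-0.75) and the hemoglobin gene Hbb-bt (-0.64) fell, 1 gene of each list. No marker of endothelial cells (Slco1a4 -0.17, Cdh5 0.13), pericytes and smooth muscle (Acta2 0.72, Pdgfrb -0.15), meningeal fibroblasts (Igf2 -0.31, Lum 0.26) or choroid plexus (Enpp2 -0.33, Ttr 0.32) was called in edgeR's quasi-likelihood test. The endothelial sum, of a cell type with known glucocorticoid responses, was 148.3 to 165.0 CPM at 6 months and 103.5 to 192.5 CPM at 24 months.

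**Figure D4:**
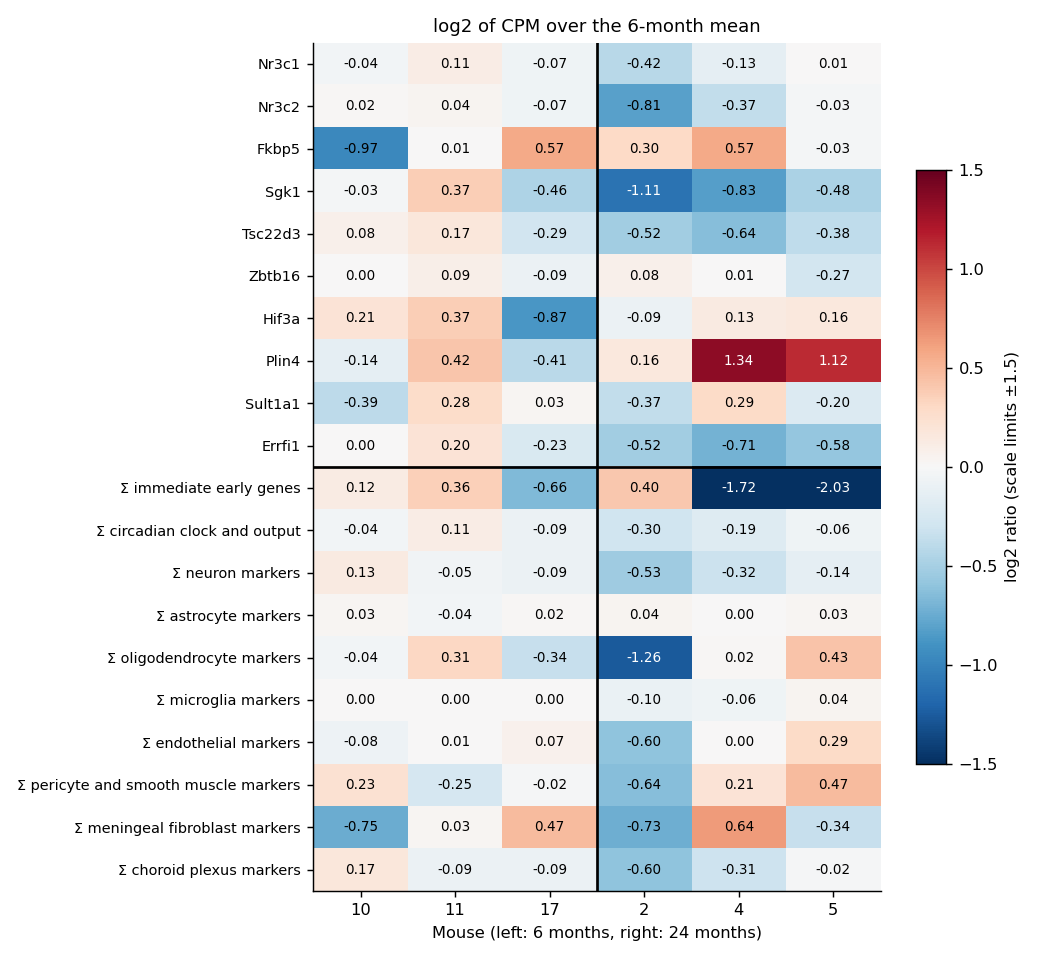
Heat map of log2 of the CPM in each mouse (columns) over the 6-month mean, for the 10 genes and for the summed CPM (Σ) of immediate early, clock and cell type marker genes (rows), with colours limited to ±1.5. Among the 10 genes, the rows of Sgk1, Tsc22d3, Errfi1 and Nr3c2 are below 0 in mice 2, 4 and 5, with Nr3c2 at -0.03 in mouse 5. The oligodendrocyte sum is at -1.26 in mouse 2 and 0.43 in mouse 5, and the immediate early gene sum at 0.40 in mouse 2 and -2.03 in mouse 5.

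Beyond the 8 targets, 24 other genes known to be induced by glucocorticoids were tested, of which 5 fell and 1 rose. Among all genes of at least 1 CPM, 17.3% were called lower and 2.43% higher. The median log2 fold change of the list was -0.12, or 0.02 relative to the median of genes of at least 1 CPM. Sesn1, which encodes a stress-induced inhibitor of growth signalling, went from 107.5 ± 7.12 to 76.4 ± 4.39 CPM (SD, n = 3), with a log2 fold change of -0.49 (edgeR adjusted p = 0.0518). Nfkbia, the inhibitor of NF-kappaB, fell by 0.56, the transcriptional repressor gene Bcl6 by 0.58, and Zfp36, whose protein promotes decay of inflammatory mRNAs, by 0.78 on the log2 scale. Per1, a clock gene with glucocorticoid response elements, fell by 0.62 although its levels overlapped between the ages. Fam107a, a stress-induced actin-binding protein gene, rose from 26.5 ± 0.731 to 35.7 ± 2.97 CPM (log2 fold change 0.43, edgeR adjusted p = 0.0553). The count of 6 dropped to 2 with library totals, to 3 with TMM factors from genes of at least 1 CPM or filterByExpr, and to 0 to 3 when mouse 10, 11, 17, 2 or 4 was left out.

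Of 14 chaperones and cochaperones that fold and hold the receptors, 8 fell and 0 rose, against 17.3% of genes of at least 1 CPM called lower. With TMM scaling 11 had 24-month values all below the 6-month values, against 32.5% of such genes. In TPM 7 of the 14 did, against 17.3% of such genes, and over library totals 3 did, against 9.36%. The median of the log2 fold changes was -0.28, or -0.14 relative to the median of genes of at least 1 CPM. The genes with the smallest p were Hspa8 (-0.46), the constitutive Hsc70, Ppid (-0.44), the cyclophilin of Hsp90 complexes, Dnaja1 (-0.38), an Hsp40, Hspa4 (-0.54), a nucleotide exchange factor of Hsp70, and Stip1 (-0.30), which links Hsp70 to Hsp90. Hspa8 alone went from 1293.0 ± 101.9 to 940.3 ± 21.8 CPM (SD, n = 3), and the list summed to 4460.1 to 4975.2 CPM at 6 months and 3678.9 to 3922.6 CPM at 24 months. The count of 8 was 4 with DESeq2 size factors or in the other tests, 3 with TMM factors from genes of at least 1 CPM, 2 with library totals or filterByExpr, and 0 without mouse 10, 11, 2 or 4. Like all lists here, this one was chosen with earlier results of these data known, so its counts are a description. Of 11 coregulators edgeR's quasi-likelihood test called 0, and the unadjusted p of 1 was under 0.05. The largest fold changes were those of the corepressor Nrip1 (-0.32) and the acetyltransferase Ep300 (-0.29).

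Among 7 genes of corticosteroid metabolism and transport, 6 were tested and 1 was called, Serpina6, which encodes the corticosteroid-binding globulin of plasma. It had 0, 0 and 0 counts in the young mice and 10, 3 and 3 counts in mice 2, 4 and 5 (edgeR adjusted p = 0.0633, not called with filterByExpr or DESeq2), so its level was near the limit of detection and no fold is given. Hsd11b2, the enzyme that inactivates corticosterone in mineralocorticoid target cells, had 1, 0 and 0 counts and 4, 0 and 0 counts and was not tested. Of 7 genes of the corticotropin-releasing hormone system edgeR's quasi-likelihood test called 0, and the unadjusted p of 0 was under 0.05. The largest fold changes among those of at least 1 CPM were those of Pomc (-0.32) and Crhr1 (-0.09). Of 4 other steroid receptors 1 fell, the estrogen receptor gene Esr1, from 7.97 ± 0.629 to 4.79 ± 1.08 CPM (log2 fold change -0.73, edgeR adjusted p = 0.0553), a call that library totals and filterByExpr did not give.

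Clock genes and immediate early genes were examined because corticosterone follows a daily rhythm and is released on arousal, which also activates neurons. Of 15 clock genes 3 fell, Per2 (-0.79), Cry2 (-0.32) and Per1 (-0.62), against 17.3% of genes of at least 1 CPM called lower. Per1 is also counted among the genes induced by glucocorticoids above. The median over the clock list was -0.27, or -0.13 relative to the median of genes of at least 1 CPM. Per2 was 38.2 to 51.8 CPM in the young and 21.0 to 33.4 CPM in the old mice, without overlap on this scale. The count stayed at 3 with DESeq2 size factors and was 1 with library totals or with TMM factors from genes of at least 1 CPM. It was 0 with filterByExpr, 0 without mouse 10, 11 or 4, and 5 without mouse 17. Of 12 immediate early genes edgeR's quasi-likelihood test called 0, and the unadjusted p of 1 was under 0.05. The median was -0.53, and the largest fold changes were those of Egr1 (-1.0) and Arc (-0.84). Their sum was 3126.2, 3704.1 and 1828.3 CPM in mice 10, 11 and 17 and 3816.9, 877.6 and 705.3 CPM in mice 2, 4 and 5, so mouse 2 stood with the young mice. Without mouse 2, 7 of the 12 were called, and 176 of all 30062 genes tested in that fit. Because mouse 2 had the highest sum of all, leaving it out lowers the 24-month level of this list by itself, and no conclusion is drawn from that count. The hour of death and the corticosterone level of the mice are not given in the sources used here, and the part of either, or of the activity these genes report, in the values of the 10 genes was not tested.

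**Figure D5:**
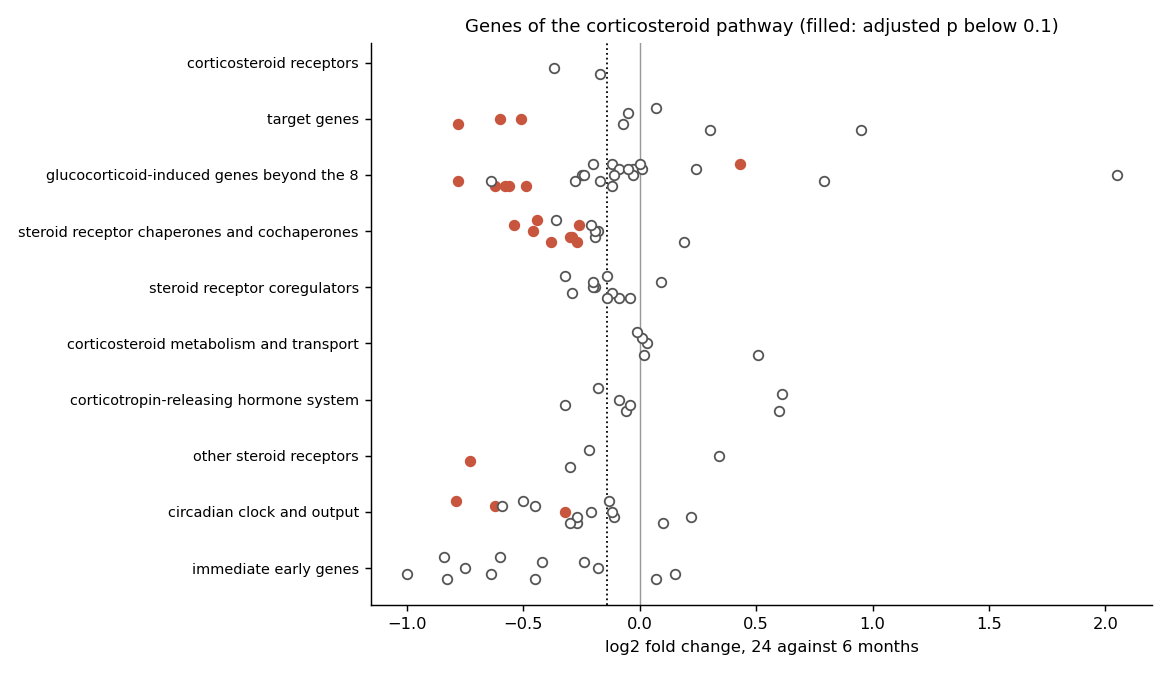
Log2 fold change of 24 against 6 months (horizontal axis) for the genes of each list (rows), filled where the adjusted p was below 0.1, with a dotted line at -0.14, the median of genes of at least 1 CPM. Serpina6, with 0 counts at 6 months, is left out. The filled points of the chaperone row (8 of 14) all lie to the left of 0, those of the target row are Sgk1, Tsc22d3 and Errfi1, and the receptor row has none.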

How the data were processed

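The authors trimmed 75 bp single-end reads, mapped them to GRCm38 with STAR 2.7.3a and counted them on exons with featureCounts (Subread 2.0.0). They deposited whole-number counts and TPM computed from the counts and exonic length, 1 file of each per mouse. The counting is not stated to use strand. Libraries were made from 10 ng of total RNA.

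The 10 genes and all gene lists were chosen with earlier results of these data known. Genes whose counts summed to at least 10 entered edgeR 4.0.16 (R 4.3.3), in the quasi-likelihood test with TMM factors and no covariate, and p-values were adjusted over the 32905 genes by the Benjamini-Hochberg method. The test was checked on simulated counts that lacked the difference between the ages in the number of genes with a count. That check does not bear on how the calls depended on the scaling. Named from each list were up to 5 genes past 10% FDR by smallest p (Per1 is named through the clock list), or otherwise the 2 largest fold changes among genes of at least 1 CPM, apart from some items not reported here. Likeness was Pearson's r on log2 CPM (prior count 2). Alternatives were other scalings, filters and tests (DESeq2 1.42.0 among them), log2(TPM + 1), and each mouse left out. Positions are from GENCODE vM21. Pairs of libraries of 1 age differed by a chi-square of 18.7 to 45.4 per gene, above sampling noise.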

Additional observations from a re-analysis of the deposited data

How the results depend on the processing

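The fold changes of Sgk1, Tsc22d3, Errfi1 and Nr3c2 were negative, and that of Plin4 positive, in each of the 14 alternatives. Of the 10 genes, 3 were called, as against 1 with filterByExpr and 0 to 4 with a mouse left out (0 without mouse 10, 11, 2 or 4). Over all genes 6040 were called, as against 1538 with filterByExpr, 4014 with at least 1 count, 3048 with DESeq2 (5745 adjusted p not given) and 0 to 7998 with a mouse left out. Fewer genes or mice entered the fits with filterByExpr and without a mouse, and the causes were not otherwise tested. In TPM or over library totals, scales added after seeing the data, 1 of the 10 genes was separated between the ages in place of 3. The fold change turned sign for Nr3c1 (library totals, 0.02), Fkbp5 (-0.01 without mouse 10, up to 0.70 with a mouse left out) and Hif3a (-0.22 without mouse 17, up to 0.34). That of Zbtb16 turned with library totals (0.14), TMM factors from genes of at least 1 CPM (0.10), filterByExpr (0.06), without mouse 11 (0.03) or mouse 5 (0.05; lowest -0.12, without mouse 2), and relative to the median of genes of at least 1 CPM (0.09, chosen after seeing the data). That of Sult1a1 turned with the same scalings, filter and centre (0.12, 0.09, 0.05 and 0.08), and without mouse 11 (0.14) or mouse 2 (0.07), and it was 0.00 without mouse 5, the lowest being -0.28 without mouse 4. The median of the 8 targets ranged from -0.18 to 0.08 and the log2 difference of the receptor ratio from -0.32 to -0.14 with a mouse left out. A fit with 2 mice at 1 age takes the spread from the remaining 5. No paired analysis was possible because the ages share no mouse numbers. With 3 mice per age and counts under 60 for Plin4, small differences could not be resolved.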
